A study of Caenorhabditis elegans with 4 samples.

Results

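The antioxidant and thiol redox genes of Caenorhabditis elegans were taken by name from the families of superoxide dismutases (sod), catalases (ctl), peroxiredoxins (prdx), glutathione peroxidases (gpx), thioredoxins (trx), thioredoxin reductases (trxr), glutaredoxins (glrx) and protein disulfide isomerases (pdi), with the enzymes of glutathione synthesis and reduction (gcs, gss, gsr) and methionine sulfoxide reductase (msra). The rule used gene names only and found 39 genes of 20040 on the array, all of them measured. They were measured by 46 transcripts, each with 3 probes, and 7 genes had 2 transcripts. The RefSeq annotation lists 38 of the genes as protein coding and gpx-8 (F55A3.5) as a pseudogene.

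Superoxide dismutases turn superoxide into hydrogen peroxide, which catalases, peroxiredoxins and glutathione peroxidases then break down. Thioredoxin and glutathione carry the electrons for the thiol-based steps and are kept reduced by their reductases at the expense of NADPH, while protein disulfide isomerases form and rearrange disulfide bonds in the endoplasmic reticulum. In C. elegans several of these families hold paralogues that differ in compartment or in the tissue that makes them, and much of the RNA of the early embryo is supplied by the mother.

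All 4 samples were of a single group, total RNA of early embryos of the wild-type strain N2, freed by bleaching from gravid adults grown in liquid S-basal culture. Each came from a separate embryo preparation that also served for chromatin immunoprecipitation, and each was a mixture of embryos of several early stages, so that fewer cells making an RNA and less RNA per cell cannot be told apart. In the study the profiles gave the level of each transcript, against which the binding of the histone methyltransferase MES-4 was read. There was no treated, mutant or later group, so the comparisons are between genes and between samples, and no test between conditions was possible.

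Median intensities of all transcripts lay between 313 and 351 in the 4 samples, and the samples correlated with Pearson's r between 0.968 and 0.992 over all genes and between 0.984 and 0.993 over the 39 redox genes, as a description across genes. The 3 lowest of these correlations over all genes, up to 0.973, were those of replicate 4 with the other samples, and the median of the serpentine receptor genes was 5.42 there and 4.74 to 4.81 in the others. With no detection call in the data, the level that 2.5% of 1344 serpentine receptor genes exceeded in a sample was used as a yardstick, and a gene above it in 4 of 4 samples is called abundant and one above it in 0 of 4 scarce. These chemoreceptor genes act mainly in sensory neurons, and the level was 8.47, 8.59, 8.70 and 8.70 in replicates 1 to 4. Of the markers that check the label, 12 of 12 maternal RNAs were above it, with 1 of 10 genes of adult yolk and intestine, 5 of 11 of sperm, 1 of 8 of muscle, 3 of 7 measured of neurons and 1 of 8 of the cuticle. The names abundant and scarce therefore give only the side of this level. The redox genes ctl-3 and msra-1, called abundant, both averaged 9.51 and lay in bin 3 of 5 equal bins of expression. All levels are log2 of the deposited RMA intensity, are not per transcript length, and depend on how well each probe set binds its RNA, so that a difference between genes is a difference between probe sets. The values of scarce genes are given as measured, since their own background was not measured, and a difference from an abundant gene to a scarce one is that between the measured intensities.

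By this yardstick each redox gene was either abundant or scarce. Of the 39 genes, 28 exceeded the serpentine receptor level in 4 of 4 samples and 11 exceeded it in 0 of 4, against 42.0% of all 20040 genes that exceeded it in 4 of 4. No redox gene exceeded it in 1 to 3 samples, where 6.43% of all genes stood, a share too small for this to set 39 genes apart. The nearest values of the 11 lay 0.25 below it, for sod-4 in replicate 3, and 0.31 below, for gpx-5 in replicate 1. The lowest of the 28 averaged 9.51 and the highest of the 11 averaged 7.93, a gap of 1.58. In the highest of 5 equal bins of expression were 11 redox genes, against 20.0% of all genes, and from the lowest to the highest bin they numbered 1, 5, 7, 15 and 11. Their median level was 11.54, against 7.82 for all genes.

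**Figure D1:**
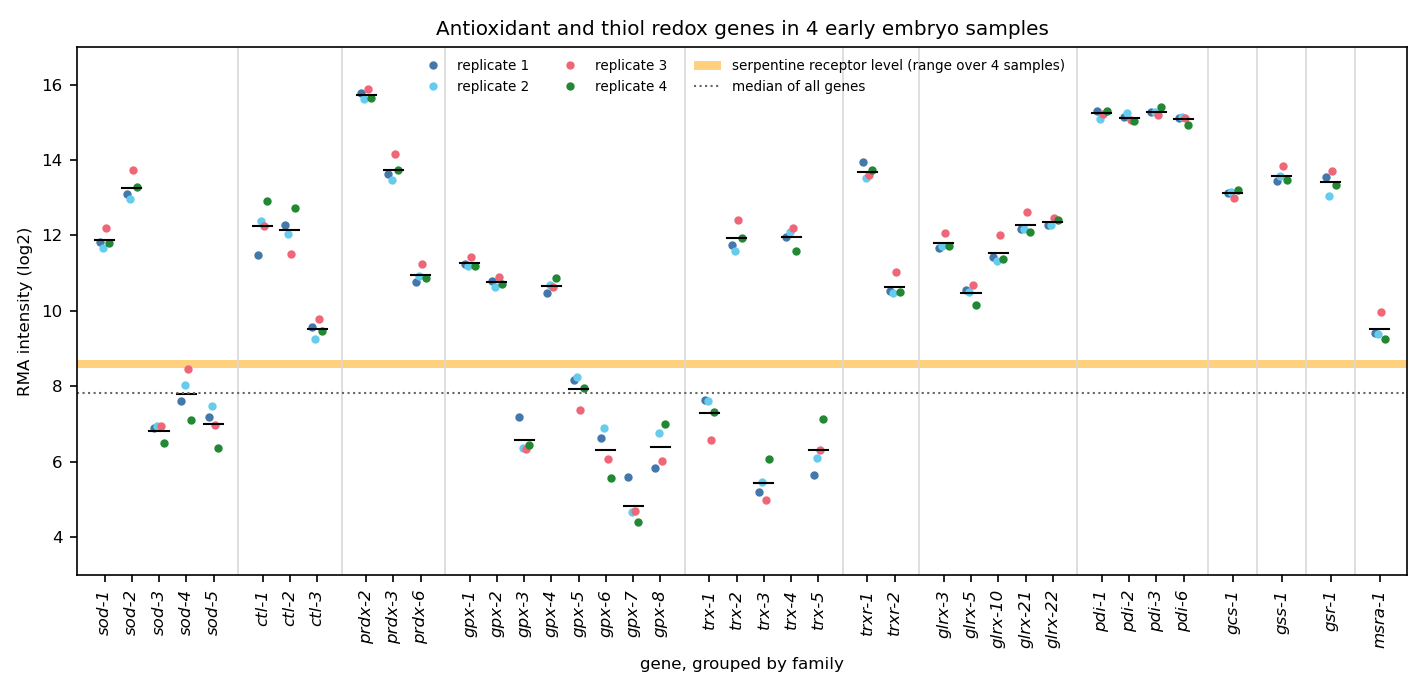
Log2 RMA intensity (vertical axis) of the 39 genes, grouped by family along the horizontal axis, with a point for each of the 4 samples and a bar for the mean. The orange band is the range of the serpentine receptor level over the samples and the dotted line the median of all genes; no mean lies between 7.93 and 9.51 and no sample between 8.44 and 9.24, and the pdi genes and prdx-2 lie at the top.

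The 11 scarce genes belonged to the sod, gpx and trx families, with 3, 5 and 3 genes, and each of these families also had members in the abundant class. All genes of the ctl, prdx, trxr, glrx and pdi families, and gcs-1, gss-1, gsr-1 and msra-1, were in the abundant class. Over the 8 families with several members, the order of a pair of paralogues was the same in 4 of 4 samples for 59 of 71 pairs, or 83.1%, against 85.4% of all pairs of genes on the array. The 46 pairs that differed by more than 1 log2 kept their order in every sample as measured. Pairs picked by a large mean difference are apt to do so, and the share among all such pairs on the array was not computed. Some of the 46 are pairs of 2 scarce genes, such as gpx-5 and gpx-3. The 12 pairs that did not keep their order differed by at most 0.29 on average. In 27 of the 71 pairs one paralogue was abundant and the other scarce, against 43.3% of all pairs of genes.

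Among the superoxide dismutases the RNAs of the main mitochondrial and the main cytosolic enzyme were abundant, and those of the other 3 genes were scarce. The mitochondrial manganese enzyme gene sod-2 (F10D11.1, chromosome I) stood at 13.10, 12.98, 13.73 and 13.27 in replicates 1 to 4. Its paralogue sod-3 (C08A9.1, chromosome X), a manganese enzyme gene known as an inducible target of the FOXO factor DAF-16, stood at 6.89, 6.94, 6.94 and 6.49. The samples did not overlap, with a measured difference of 6.45 ± 0.39 (SD, n = 4), and sod-2 exceeded the serpentine receptor level by 4.39 or more in each sample. Both manganese enzymes are mitochondrial.

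The cytosolic copper/zinc enzyme gene sod-1 (C15F1.7, chromosome II) averaged 11.88 ± 0.23 (SD, n = 4) over its 2 transcripts. The minor copper/zinc gene sod-5 (ZK430.3, chromosome II) stood at 7.19, 7.47, 6.98 and 6.37, and sod-4 (F55H2.1, chromosome III), the extracellular form, at 7.62, 8.04, 8.44 and 7.09. Every sample of both lay below every sample of sod-1, by a measured 4.87 ± 0.56 for sod-5 and 4.08 ± 0.49 for sod-4 (SD, n = 4 each). With the higher transcript of sod-1 in place of the average these were 6.46 and 5.67, and sod-1 itself exceeded the serpentine receptor level by 3.09 or more in each sample. The scarce sod-5 and sod-3 did not keep an order, with a mean difference of 0.19 ± 0.29.

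Which of sod-2 and sod-1 was higher depended on the transcript of sod-1. With both transcripts averaged, sod-2 was 1.39 ± 0.12 above sod-1 and higher in 4 of 4 samples. The 2 probe sets of sod-1, however, were far apart: transcript b stood at 13.42, 13.37, 13.61 and 13.46, and transcript a at 9.98 to 10.80. Transcript b exceeded transcript a by 3.17 ± 0.26 (SD, n = 4) with no overlap between them. Against transcript b alone sod-2 differed by -0.32, -0.39, 0.11 and -0.19, a mean of -0.20 ± 0.22, so that sod-2 was lower in 3 of 4 samples.

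**Figure D2:**
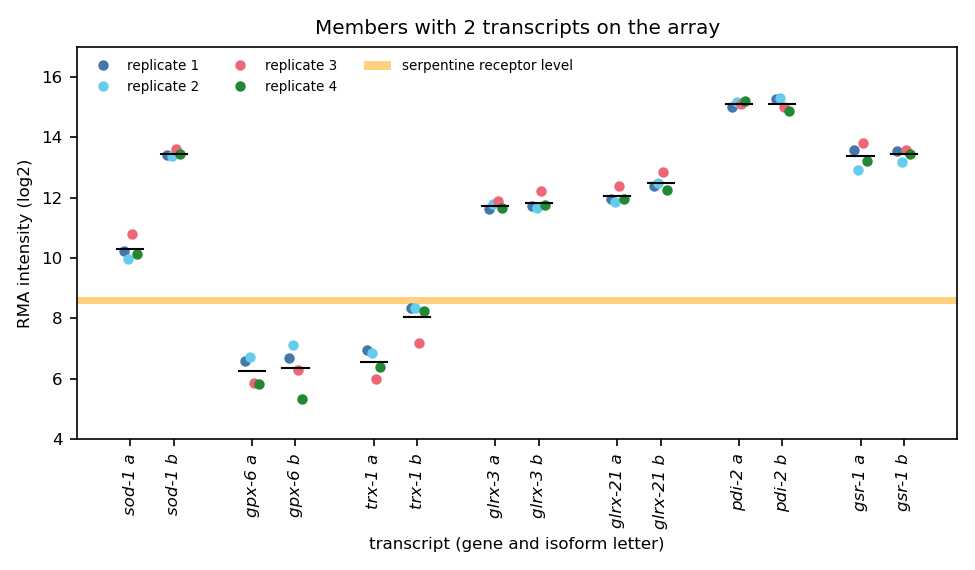
Log2 RMA intensity (vertical axis) of both transcripts of the 7 redox genes that have 2 on the array (horizontal axis), with a point per sample, a bar for the mean and the orange band for the range of the serpentine receptor level. The transcripts of sod-1 are 3.17 apart and those of trx-1 1.49, while the other 5 genes differ by 0.46 or less.

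The catalases were all abundant, but ctl-1 and ctl-2 varied more between samples, for their level, than any other redox gene. The genes ctl-1 (Y54G11A.6), ctl-2 (Y54G11A.5) and ctl-3 (Y54G11A.13) neighbor each other on chromosome II, and because their sequences are alike, each probe set may also detect RNA of the others. The gene of the cytosolic catalase, ctl-1, stood at 11.48, 12.39, 12.25 and 12.91, and that of the peroxisomal catalase, ctl-2, at 12.27, 12.03, 11.51 and 12.73. Both were highest in replicate 4, but ctl-1 was lowest in replicate 1 and ctl-2 in replicate 3, and their ranges overlapped. The part of the general difference of replicate 4 in this was not tested.

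The difference of ctl-1 minus ctl-2 was -0.79, 0.36, 0.74 and 0.18 in replicates 1 to 4, a mean of 0.12 ± 0.65 (SD, n = 4), so ctl-1 was lower in replicate 1 and higher in the other samples. Both exceeded ctl-3, which stood at 9.56, 9.24, 9.78 and 9.46, in every sample, by 2.74 ± 0.69 for ctl-1 and 2.62 ± 0.64 for ctl-2. Set against the 100 genes on either side of it in mean level, ctl-1 had an SD of 0.59 where the median of those genes was 0.23, at the 98.0th percentile, and ctl-2 an SD of 0.51 against 0.21, at the 97.0th. Without replicate 1 the SD of ctl-1 was 0.35, and without replicate 3 that of ctl-2 was 0.36. The third gene, ctl-3, was at the 23.0th percentile.

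All 3 peroxiredoxin genes were abundant, at widely spaced levels and in the same order in every sample. The cytosolic 2-Cys enzyme gene prdx-2 (F09E5.15, chromosome II) stood at 15.77, 15.63, 15.88 and 15.65, and only 2 of the 20040 genes had a higher mean. The mitochondrial prdx-3 (R07E5.2, chromosome III) stood at 13.63, 13.47, 14.16 and 13.73, and the 1-Cys gene prdx-6 (Y38C1AA.11, chromosome IV) at 10.76, 10.92, 11.24 and 10.88. None of the 3 ranges overlapped. The steps were 1.99 ± 0.21 from prdx-2 to prdx-3 and 2.80 ± 0.17 from prdx-3 to prdx-6 (SD, n = 4 each).

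The glutathione peroxidases were split, with gpx-1, gpx-2 and gpx-4 abundant at moderate levels and none in the highest bin. The gene gpx-1 (F26E4.12, chromosome I) stood at 11.24, 11.18, 11.43 and 11.18, gpx-2 (R05H10.5, chromosome II) at 10.79, 10.64, 10.89 and 10.70, and gpx-4 (Y94H6A.4, chromosome IV) at 10.47, 10.69, 10.63 and 10.87. The lead of gpx-1 over gpx-2, although only 0.51 ± 0.05 (SD, n = 4), held in every sample. The genes gpx-2 and gpx-4 overlapped and differed by 0.09 ± 0.24 with no set order.

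The remaining 5 gpx genes lay below the serpentine receptor level, including the pseudogene gpx-8 at 6.40 ± 0.56. The neighbors gpx-5 (C11E4.1) and gpx-3 (C11E4.2) on chromosome X stood at 8.16, 8.25, 7.36 and 7.95 and at 7.19, 6.36, 6.33 and 6.45. As measured, these samples did not overlap, but both genes lay below the level in 4 of 4 samples, so their order was not resolved. The gene gpx-7 (R03G5.5, chromosome X), at 5.58, 4.66, 4.69 and 4.39, had the lowest measured values, and gpx-1 exceeded the serpentine receptor level by 2.48 or more in each sample. The measured difference of gpx-1 minus gpx-7 was 6.43 ± 0.53 (SD, n = 4), and 5.78 with a pseudocount of 16. The remaining gene, gpx-6 (T09A12.2, chromosome IV), averaged 6.30 ± 0.59.

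**Figure D3:**
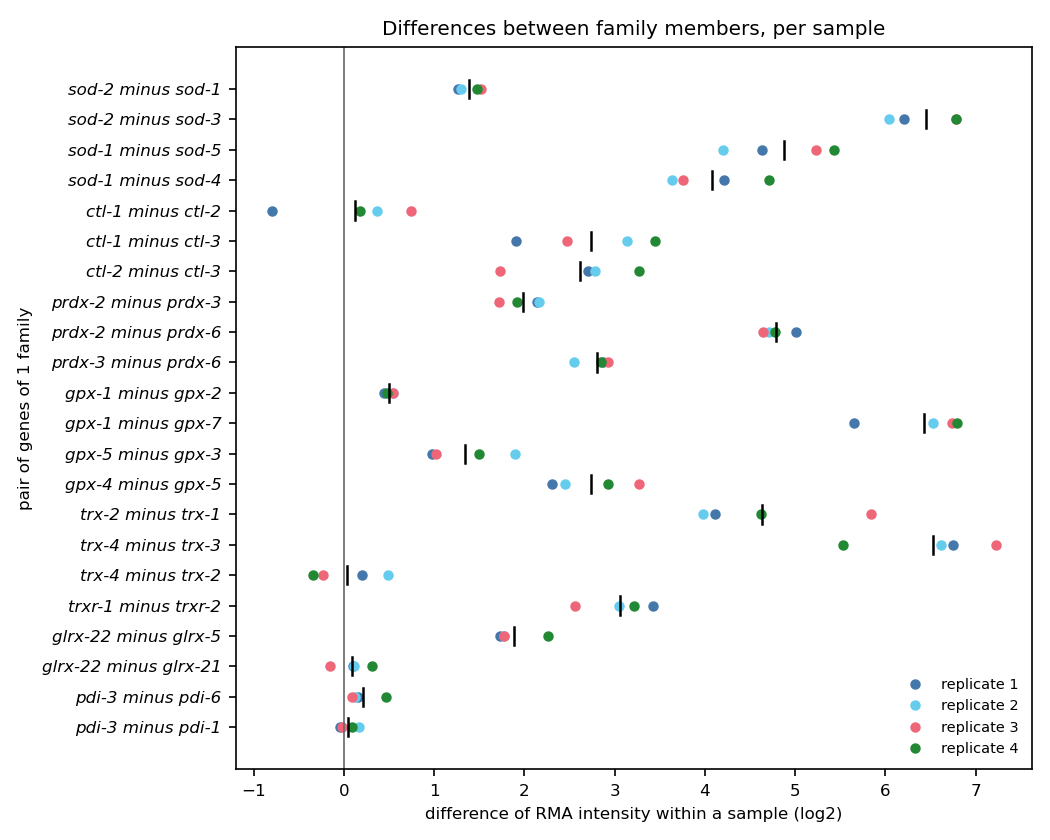
Difference of log2 RMA intensity (horizontal axis) within each sample for 22 pairs of paralogues (vertical axis), first-named gene minus second, with a point per sample and a bar for the mean. Most pairs lie wholly to the right of 0, while the points of ctl-1 minus ctl-2, trx-4 minus trx-2, glrx-22 minus glrx-21 and pdi-3 minus pdi-1 fall on both sides of it.

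Thioredoxin genes showed the same division. The mitochondrial trx-2 (B0024.9, chromosome V) stood at 11.75, 11.59, 12.42 and 11.94, and trx-4 (Y44E3A.3, chromosome I), another thioredoxin gene, at 11.95, 12.08, 12.20 and 11.59. These ranges overlapped, and trx-4 minus trx-2 was 0.20 and 0.49 in replicates 1 and 2 but -0.23 and -0.34 in replicates 3 and 4. The scarce members included trx-1 (B0228.5, chromosome II), known for its expression in the ASJ sensory neurons, at 7.63, 7.60, 6.58 and 7.32. The intestinal thioredoxin gene trx-3 (M01H9.1, chromosome IV) stood at 5.20, 5.46, 4.97 and 6.06. Every sample of both was below every sample of trx-2 and trx-4, with trx-2 exceeding trx-1 by 4.64 ± 0.85 and trx-4 exceeding trx-3 by 6.53 ± 0.71 as measured (SD, n = 4 each). Over the serpentine receptor level, trx-2 stood 3.00 or more and trx-4 2.89 or more in each sample. The level of trx-5 (K02H11.6, chromosome V) was 6.30 ± 0.62. Transcript b of trx-1 exceeded transcript a by 1.49 ± 0.26 in 4 of 4 samples, and both averaged below the serpentine receptor level, at 8.03 and 6.54.

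Both thioredoxin reductase genes were abundant, the cytosolic form well above the mitochondrial one. The gene trxr-1 (C06G3.7, chromosome IV), which encodes the selenocysteine-containing reductase of the worm, stood at 13.94, 13.51, 13.60 and 13.73, against 10.52, 10.46, 11.04 and 10.51 for the mitochondrial trxr-2 (ZK637.10, chromosome III). The samples of the pair did not overlap, and the difference was 3.06 ± 0.37 (SD, n = 4). It was smallest in replicate 3, at 2.56, where trxr-2 was highest.

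Glutaredoxins, which use glutathione as their reductant, spanned a narrow range in the middle of the abundant class. The highest by averaged transcripts, glrx-22 (C07G1.8, chromosome IV), stood at 12.28, 12.28, 12.47 and 12.42, and the lowest, glrx-5 (Y49E10.2, chromosome III), a mitochondrial glutaredoxin linked to iron-sulfur clusters, at 10.54, 10.50, 10.70 and 10.16. These did not overlap and differed by 1.89 ± 0.25 (SD, n = 4). Between them, glrx-21 (ZK121.1, chromosome III) averaged 12.27 ± 0.24, glrx-3 (D2063.3, chromosome V) 11.79 ± 0.18 and glrx-10 (Y34D9A.6, chromosome I) 11.54 ± 0.32. Of the 10 pairs, 9 kept their order, and the exception was glrx-22 and glrx-21, which were 0.09 ± 0.19 apart. Replicate 3 had glrx-21 above glrx-22, and so did the mean when the higher transcript of glrx-21 was taken, at 12.50.

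The 4 protein disulfide isomerase genes lay close together, at the 99.3rd to 99.7th percentiles of all genes. Their means ran from 15.29 ± 0.08 for pdi-3 (H06O01.1, chromosome I) through 15.24 ± 0.10 for pdi-1 (C14B1.1, chromosome III) and 15.12 ± 0.09 for pdi-2 (C07A12.4, chromosome X) to 15.08 ± 0.10 for pdi-6 (B0403.4, chromosome X). The samples of pdi-3 stood at 15.27, 15.27, 15.21 and 15.40, all above the 15.12, 15.15, 15.11 and 14.94 of pdi-6. PDI-2 is also a subunit of the collagen prolyl hydroxylase of the worm. Only 2 of the 6 pairs kept their order in every sample, and the most distant pair, pdi-3 and pdi-6, differed by 0.21 ± 0.17 (SD, n = 4). The highest mean of any gene on the array was 15.81, and whether signals saturate at these intensities was not tested.

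The genes of the glutathione cycle were all in the highest bin. The gene of the rate-limiting enzyme of glutathione synthesis, gcs-1 (F37B12.2, chromosome II), a target of the stress factor SKN-1, stood at 13.12, 13.16, 12.98 and 13.20. The gene of the enzyme of the second step, gss-1 (M176.2, chromosome II), stood at 13.45, 13.59, 13.84 and 13.47, and glutathione reductase gsr-1 (C46F11.2, chromosome III) at 13.56, 13.05, 13.70 and 13.33. Of these, gsr-1 was the highest in replicate 1 and gss-1 in the other replicates, and the ranges of gss-1 and gsr-1 overlapped. The gene of the reductase of oxidized methionine, msra-1 (F43E2.5, chromosome II), was among the lowest of the abundant class, at 9.42, 9.39, 9.98 and 9.26.

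The sample in which a gene was highest was not evenly spread over the replicates. Of the 28 abundant redox genes, 19, or 67.9%, were highest in replicate 3, against 42.9% of all 8422 genes above the serpentine receptor level. The median of replicate 3 minus the mean of the other samples was 0.31 for these 28 genes and 0.07 for all genes above the level. All 3 prdx genes and all 5 glrx genes were highest there. The 9 exceptions were ctl-1, ctl-2, gpx-4, trxr-1, gcs-1 and the 4 pdi genes.

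Of the 6 genes of mitochondrial enzymes (sod-2, sod-3, prdx-3, trx-2, trxr-2 and glrx-5), the 5 abundant ones were highest in replicate 3. So were 19 of all 28 abundant redox genes, so this was not particular to mitochondrial enzymes. Lowest in replicate 2 were 4 of the 5 mitochondrial genes and 13 of the 28, against 22.2% of all genes above the serpentine receptor level. The excess of replicate 3 over the mean of the other samples was 0.66 for trx-2, 0.61 for sod-2, 0.55 for prdx-3, 0.54 for trxr-2 and 0.29 for glrx-5. Among the other abundant redox genes it ran from -0.83 for ctl-2 to 0.62 for msra-1 and 0.64 for glrx-10, so excesses of this size were not confined to mitochondrial enzymes. The 4 pdi genes stood between -0.11 and 0.05 on the same measure. Other features moved with this sample. The summed intensity of 8 muscle markers, of which 1 was above the level, was 4109, 3179, 1285 and 2619 in replicates 1 to 4. The one above it, unc-54, stood at log2 10.87, 10.37, 8.87 and 10.11, while tnt-2 was lowest in replicate 2. The summed intensity of 11 sperm markers was 3708, 3762, 5294.5 and 5796, highest in replicate 4. That of 8 cuticle markers was 5337, 3823, 2243 and 4726. The cuticle sum was mostly that of dpy-7, the only one of the 8 above the level, at log2 12.24, 11.71, 10.81 and 12.01. The cuticle markers rol-6 and sqt-1 were highest in replicate 3. Among the lists of related genes, that of SKN-1 and stress signaling had a median deviation of -0.36 in replicate 3. The 13 listed glutathione S-transferases had one of 0.22 there. The list of oxidant sources and heme peroxidases summed to 6826 there and to 11712 to 12044 in the others, but its median deviation was only -0.02. Its highest gene, the heme peroxidase gene pxn-2, stood at log2 12.44, 12.69, 11.39 and 12.54 in replicates 1 to 4. The remaining lists lay between -0.08 and -0.03. The median deviation of replicate 3 from the gene mean was -0.12 for genes on X and 0.05 for genes on autosomes. The part of these in the high values of replicate 3 was not tested.

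**Figure D4:**
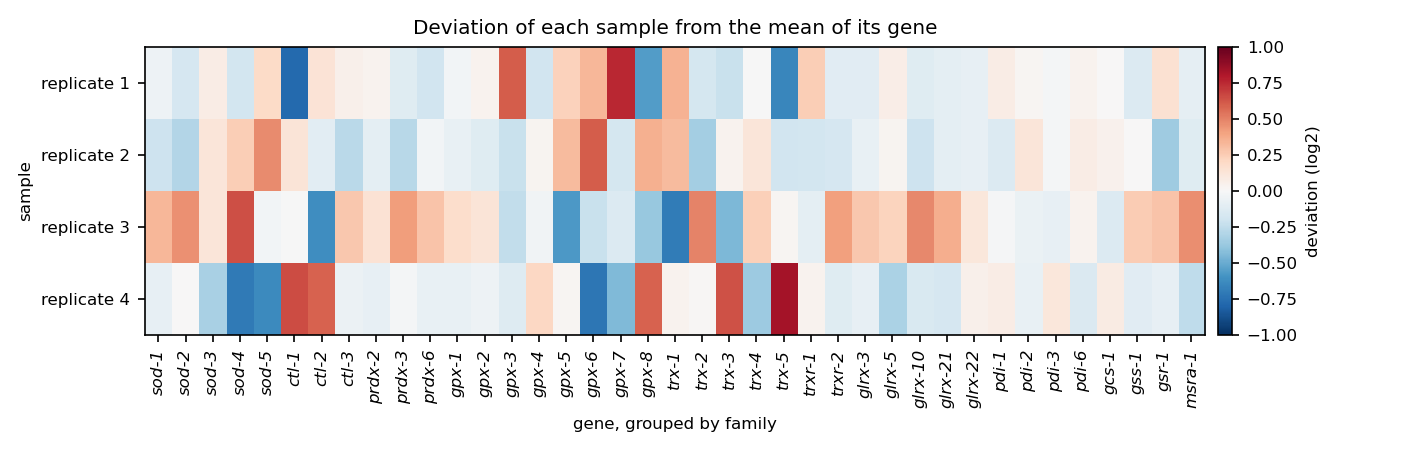
Deviation of each sample from the mean of its gene (color, log2, red above and blue below the mean) for the 39 genes along the horizontal axis and the 4 samples down the vertical axis. Replicate 3 is above the mean for most sod, prdx and glrx genes and for msra-1, and near it for the pdi genes.

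Spread between samples differed among the genes as well as level. The median SD of the 39 genes, abundant and scarce together, was 0.26, against 0.35 for all genes. That of the 28 abundant ones was 0.214, against 0.205 for all genes above the serpentine receptor level. Compared with the 100 genes on either side in level, 16 of the 39 had an SD above the median and 2, ctl-1 and ctl-2, an SD above the 90th percentile. The mitochondrial genes prdx-3, at that percentile, and sod-2, at the 89.0th, came next, and gsr-1 stood at the 84.5th. Without replicate 3 the median SD was 0.15 for the 39 genes, 0.27 for all genes and 0.14 for all genes above the level. The smallest spreads for their level were those of sod-3 at the 6.0th percentile and of gpx-1 and gpx-2, both at the 8.5th. Of these, sod-3 was scarce, so its small spread is one of values below the serpentine receptor level.

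**Figure D5:**
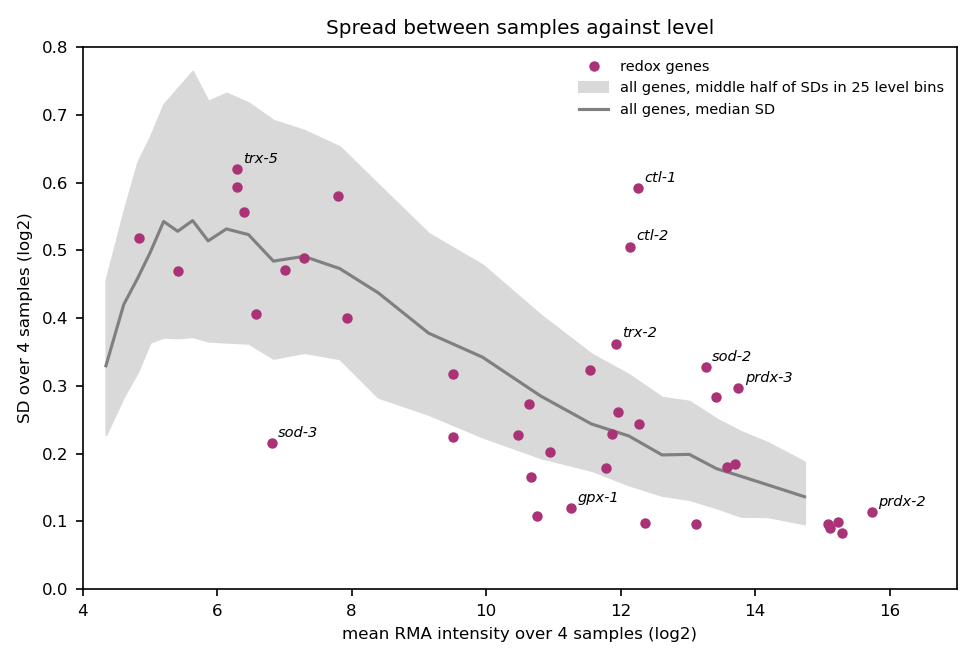
SD over the 4 samples (vertical axis, log2) against mean log2 RMA intensity (horizontal axis) for the 39 redox genes (points), with the median (line) and the middle 50% (band) of the SDs of all genes in 25 bins of level. The points of ctl-1 and ctl-2 lie far above the band at their level, while the pdi genes lie low at the right.

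On chromosome X, 2 of 6 redox genes were abundant, pdi-2 and pdi-6, against 37.7% of all X-linked genes. The other 4 were sod-3, gpx-3, gpx-5 and gpx-7. On the autosomes 26 of 33 were abundant, against 43.1% of all autosomal genes.

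Genes around these enzymes were described from 8 lists of known function, in which 62 of 79 measured genes were above the serpentine receptor level in 4 of 4 samples, against 42.0% of all genes. In the highest bin were 32 of the 79, against 20.0% of all genes. NADPH is the electron source of both thiol systems. The list around its supply had 8 of 8 genes above the level and 7 in the highest bin, with a median of 13.36. Some of the 8 encode enzymes that do not themselves make NADPH. One of these, the transketolase gene tkt-1, was the highest at 15.04 ± 0.06. The gene of glucose-6-phosphate dehydrogenase, gspd-1, averaged 12.85 ± 0.29 (SD, n = 4), and the mitochondrial transhydrogenase gene nnt-1 was lowest at 11.50 ± 0.39.

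Of the regulators, 13 of 13 genes of SKN-1 and stress signaling were above the level, with a median of 13.17. The SKN-1 gene itself averaged 12.89 ± 0.29 and wdr-23, whose product restrains SKN-1, 14.59 ± 0.16 (SD, n = 4 each). The gene of DAF-16, daf-16, averaged 12.29 ± 0.30, while its target sod-3 was scarce. The lowest of the list were sesn-1 at 9.59 ± 0.21 and the insulin receptor gene daf-2 at 10.68 ± 0.30.

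In the secretory pathway, where the pdi genes act, 10 of 10 measured chaperone and oxidative folding genes were above the level and 8 lay in the highest bin. The calreticulin gene crt-1 stood at 15.57 ± 0.17, close to the pdi genes, while ero-1, which encodes the oxidase that recharges disulfide isomerases, averaged 12.02 ± 0.10 (SD, n = 4 each). A further 6 of 6 thioredoxin-like genes outside the named families were above the level, from 12.11 for txdc-12.2 to 15.24 for dpy-11.

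The lists of selected glutathione S-transferases, oxidant sources with heme peroxidases, and metal storage had smaller shares above the level than the other lists. These shares lay on either side of the 42.0% of all genes. Of 13 listed transferase genes, from the omega, kappa, zeta and other named classes, 6 were above the level. The 13 ran from 14.44 ± 0.25 for gst-7 to 4.38 ± 0.34 for gsto-1. The gene gst-4, a widely used SKN-1 reporter, was scarce at 6.19 ± 0.30. Of 9 genes of superoxide and peroxide sources and heme peroxidases, 3 were above the level, led by pxn-2 at 12.26 ± 0.59. The ferritin genes were far apart, with ftn-2 at 13.43 ± 0.10 and ftn-1 at 5.91 ± 0.34 (SD, n = 4 each), and 4 of 7 metal storage genes were above the level. In cysteine and sulfur metabolism 12 of 13 genes were above it, with a median of 11.41 for the list. The highest, ahcy-1 at 15.22 ± 0.14, was the only one in the highest bin.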

How the data were processed

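According to the methods, RNA of 4 early embryo preparations was hybridized to single-color NimbleGen expression arrays. The labels describe DNase treatment of every sample and the methods of only some. The authors brought the arrays to a common distribution by quantile normalization and used RMA to combine the 3 probes of a transcript, and each deposited value is an intensity, not on a log scale. For the expression array, the sources used here do not name the software version, annotation or genome build. Background and detection calls were not analysed here, and the number of arrays sets how precise the values are.

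The deposited intensities were turned into log2 values with no pseudocount and no filter, and transcripts of a gene were averaged, which turned 23180 transcripts into 20040 genes. Symbols came from the RefSeq table of assembly WBcel235, which matched 19383 genes, while 657 kept the names of the files. No coordinates of it were used. The series table held the same values, with 0 of 92720 differing. Python 3.11.15 with numpy 2.4.6 and pandas 2.3.3 was used, and the scripts were tested on simulated data.

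A gene was above the serpentine receptor level if it exceeded, in each of 4 samples, the value that 2.5% of 1344 serpentine receptor genes of that sample exceeded. Values are means ± SD over samples, and no p-value was computed because all samples form 1 group. The redox genes and the lists of related genes were chosen with earlier results of these data known. Named were all 39 redox genes and, of each list, some of its 2 highest and 2 lowest genes. The genes skn-1, daf-16, gspd-1, gst-4 and ftn-2 were added after their values were seen. Of the 80 listed genes 79 were measured under the listed name. Alternatives were leaving out each replicate, medians over samples, the highest transcript of a gene, linear averages, a pseudocount of 16, median centring, the series table, other percentiles, other receptor families and other bin numbers.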

Additional observations from a re-analysis of the deposited data

Results flagged for a closer look

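In 6 of 39 redox genes, or 15.4%, a single sample stood apart, its gap to the nearest of the others being too large a share of the whole range by Dixon's 95% critical value for 4 samples. Chance passes this value in about 1 in 20 groups, and 7.88% of all genes on the array passed it. Replicate 3 was the high sample in 4 of the 6: trxr-2 stood at 11.04 there against 10.46 to 10.52 in the other samples, glrx-3 at 12.05 against 11.68 to 11.71, glrx-10 at 12.02 against 11.33 to 11.42, and glrx-21 at 12.63 against 12.10 to 12.17. In the scarce genes, sod-3 was low in replicate 4, at 6.49 against 6.89 to 6.94, and gpx-3 was high in replicate 1, at 7.19 against 6.33 to 6.45. No explanation of these was tested.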

How the results depend on the processing

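The count of 28 abundant redox genes was the same under every alternative run except a stricter serpentine receptor level, the 99th percentile, which left 26, since ctl-3 and msra-1 then exceeded the level in 3 of 4 samples. The median level of the 39 genes, 11.54, ran from 11.38 to 11.61 with a replicate left out, lowest without replicate 3, and was 11.40 with medians over samples. Their median SD of 0.26 ran from 0.15, without replicate 3, to 0.28. The 11 genes in the highest of 5 bins became 5 in the highest of 10. Pairs in the same order numbered 58 or 59 in the runs on 4 samples. With a replicate left out they numbered 60 to 62, by the looser rule of the same order in 3 of 3 samples. Of the recomputed differences between paralogues, 212 moved by less than 1 SD, 7 moved by more, and, of the pairs in the same order in every sample, sod-2 minus sod-1 reversed, to -0.20, with the highest transcript of each gene, because transcript b of sod-1 then stands for the gene; with linear averages it was 0.68. The highest transcript put sod-1 at 13.46 and trx-1 at 8.03. Pairs with no set order also changed sign: glrx-22 minus glrx-21 was -0.14 with the highest transcript, trx-4 minus trx-2 was -0.03 without replicate 1 and -0.12 without replicate 2, and ctl-1 minus ctl-2 was -0.08 without replicate 3. Medians over samples give no order of pairs, SD or highest sample. No paired analysis was possible because all samples belong to 1 group. The 11 scarce genes have no background of their own to be set against, and 4 arrays limit the precision of every value.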
